A study of Drosophila melanogaster with 3 samples.

Results

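The regions described here are the binding sites of Hr3 that lie at the start of a non-coding RNA gene and at no start of a protein-coding gene. They were chosen by position alone. Each is a peak of the authors' reproducible list on the dm6 assembly whose summit, the point of highest signal, lies within 500 bp of an annotated transcription start site (TSS) of a non-coding gene and over 500 bp from every protein-coding TSS. Of 5357 reproducible summits, 141 met this rule (2.63%, 95% exact binomial interval 2.22 to 3.10). They were mapped by ChIP-seq, the sequencing of DNA fragments pulled down with a tagged protein, in whole Drosophila melanogaster embryos aged 0 to 24 h, with the sexes pooled. The flies are a transgenic line that carries Hr3, also called Hr46, fused at its C-terminus to green fluorescent protein (GFP), and the labels give 1 group of 3 biological replicates. The promoter that drives the fusion is not given in the sources used here, all embryonic tissues and ages are mixed, and no untagged line or second condition was analysed. The labels' description names an antibody against GFP, while another label field gives Hr3 as the antibody.

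Hr3 is a nuclear receptor of the ecdysone cascade, the fly counterpart of the mammalian ROR receptors, and is best known for switching on ftz-f1 after a pulse of ecdysone. Receptors of this family bind as monomers to an RORE, which is a receptor core of AGGTCA or GGGTCA preceded by an AT-rich stretch. Long non-coding RNAs (lncRNAs) and antisense RNAs are transcribed by RNA polymerase II from promoters of their own, whereas most microRNAs and many small nucleolar RNAs (snoRNAs) are cut from longer transcripts. For these small RNAs the annotated start is the 5′ end of the product and need not be a start of transcription.

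The windows of 7 of these regions show the kinds of site involved. All are 121 bases of the dm6 genome centred on the summit, printed on the plus strand. In the first 4, which belong to the 5 strongest regions, capitals mark the 51 bases around the summit over which base composition was measured. None of the 4 holds an RORE within 100 bp of the summit.
lncRNA:CR44619, chrX:12752295-12752415: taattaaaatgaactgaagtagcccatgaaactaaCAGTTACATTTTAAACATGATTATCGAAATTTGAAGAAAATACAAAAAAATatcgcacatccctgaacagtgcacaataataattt
lncRNA:CR31044, chr3R:29214403-29214523: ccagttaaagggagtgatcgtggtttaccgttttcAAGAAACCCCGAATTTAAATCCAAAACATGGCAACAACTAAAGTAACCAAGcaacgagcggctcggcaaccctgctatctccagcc
lncRNA:CR46036, chr3R:17700523-17700643: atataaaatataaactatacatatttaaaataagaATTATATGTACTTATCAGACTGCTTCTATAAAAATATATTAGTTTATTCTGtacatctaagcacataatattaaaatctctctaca
asRNA:CR44429, chrX:15298410-15298530: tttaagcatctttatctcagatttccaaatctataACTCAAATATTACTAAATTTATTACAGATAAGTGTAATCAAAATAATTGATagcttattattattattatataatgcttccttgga
The other 3 windows hold a listed sequence element, in capitals. The window at CR44867, in an intron of beat-Ib, holds the RORE on the minus strand.
lncRNA:CR44867, chr2L:15911486-15911606: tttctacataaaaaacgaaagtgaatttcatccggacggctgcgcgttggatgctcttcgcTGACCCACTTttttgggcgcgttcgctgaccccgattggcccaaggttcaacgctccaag
The U6:96Ac window holds a CTCF core, and the roX1 window holds an Ohler 7 element, one of the core promoter elements of fly genes, on the minus strand.
snRNA:U6:96Ac, chr3R:24557055-24557175: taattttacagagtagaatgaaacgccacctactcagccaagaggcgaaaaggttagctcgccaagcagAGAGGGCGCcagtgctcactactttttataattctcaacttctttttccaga
lncRNA:roX1, chrX:3862447-3862567: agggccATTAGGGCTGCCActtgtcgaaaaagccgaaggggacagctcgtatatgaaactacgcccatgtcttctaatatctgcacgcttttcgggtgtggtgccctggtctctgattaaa

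The 141 summits belonged mostly to long non-coding RNAs. By the gene with the nearest start, 107 summits were at lncRNA genes (75.9%), 13 at antisense RNA genes, 9 at microRNA genes, 4 at snoRNA genes, 3 at spliceosomal small nuclear RNA (snRNA) genes, 3 at tRNA genes, 1 at a pseudogene and 1 at another non-coding RNA, snoRNA:Or-ACA9. None was at one of the 99 annotated rRNA genes of the 6 arms. They belonged to 133 genes. The peaks of 8 summits overlapped another peak of the set, which leaves 137 separate regions. At 15 summits the starts of several annotated non-coding genes or records lay within 500 bp, and at 1 of them these were on both strands.

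Measured against the genes on offer, binding at non-coding promoters was uncommon. Of 3126 non-coding genes with no coding TSS within 500 bp of theirs, 154 had a reproducible summit within 500 bp (4.93%, interval 4.19 to 5.74), against 3332 of 13945 protein-coding genes (23.9%). Among lncRNA genes 114 of 1694 were bound (6.73%), among antisense RNA genes 11 of 321 (3.43%), among microRNA hairpins 8 of 231 (3.46%), among snoRNA genes 7 of 240 (2.92%) and among tRNA genes 5 of 258 (1.94%). For snRNA genes the share was 5 of 29 (17.2%), with an interval of 5.85 to 35.8% that spans the lncRNA share. These counts take in summits that also lie within 500 bp of a coding TSS, and the coding share is over all protein-coding genes. By member summits only, 138 of all 3738 non-coding genes were bound (3.69%). All intervals here cover counting error only, and genes that lie close together can share a summit.

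The windows around non-coding starts also held fewer summits per base than those around coding starts. Windows of 500 bp around non-coding starts, less the windows of coding starts, covered 2.10% of the bases of the 6 arms and held 2.63% of the summits, a ratio of 1.25. The same ratio was 4.27 for windows around coding starts and 0.561 for the rest of the arms. By arm, members made up 37 of 1015 summits on 2L (3.65%), 29 of 964 on 2R (3.01%), 27 of 1133 on 3L (2.38%), 27 of 1256 on 3R (2.15%) and 21 of 968 on X (2.17%). Arm 4 had 21 summits and no member, and an upper bound of 16.1% follows from so few. The lncRNA genes with a member summit had a median length of 663 bp (n = 104), and the lncRNA genes with neither a coding TSS within 500 bp nor a summit had one of 667.5 bp (n = 1580).

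Summits at non-coding promoters were spread widely around the annotated start, whereas those at coding promoters gathered just upstream of it. Of the 141 summits, 87 lay upstream of the nearest non-coding TSS (61.7%, interval 53.1 to 69.8), against 2263 of 2617 coding promoter summits (86.5%). Within 200 bp of the start lay 57 of the 141 (40.4%) and 71.1% of the coding promoter summits. The most filled 100 bp class at coding promoters ran from 200 to 100 bp upstream, with 32.9% of summits, and the corresponding class held 14.9% of the members. Downstream, only 5 members lay in the first 100 bp, while 25 lay between 400 and 500 bp, 17.7% of all members against 1.45% of coding promoter summits.

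The difference in position recurred in each replicate. In each replicate's own 5357 strongest peaks, classed by the same rule, the upstream share was 60.4, 63.8 and 62.96% at non-coding promoters and 84.7, 86.8 and 86.6% at coding promoters for replicates 1, 2 and 3. The mean difference was -23.6 percentage points ± 0.646 (SD, n = 3). The share within 200 bp differed by -28.3 points ± 2.71 (SD, n = 3). Both were negative in 3 of 3 replicates, with p = 0.25 in the two-sided exact permutation test over sign flips, the smallest p that 3 replicates allow. When both distances of the rule were narrowed to 200 bp, 69 summits met it, 57 of the 141 and 12 with a coding TSS between 200 and 500 bp away, and 76.8% of the 69 were upstream.

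**Figure D1:**
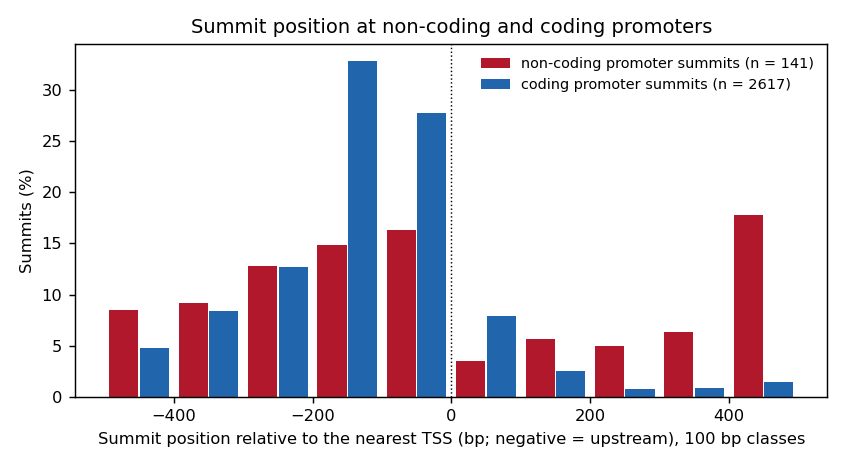
Share of summits (%) in 100 bp classes of position relative to the nearest TSS, negative values being upstream, for 141 non-coding promoter summits (red) and 2617 coding promoter summits (blue). Coding promoter summits gather from 200 bp upstream to the TSS, while 25 members lie 400 to 500 bp downstream and 5 in the first 100 bp downstream.

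The 25 far downstream summits were of mixed kind. Of these, 21 were at lncRNA or antisense RNA genes, 15 lay inside the body of the gene and 10 beyond its annotated end. Among all summits with no coding TSS within 500 bp, the next class out, 500 to 600 bp downstream of the nearest non-coding TSS, held 19 summits, CR46322 at exactly 500 bp among them, and the classes from 600 to 1000 bp held 7 to 14 each. The width of 500 bp therefore cuts through this group. Just inside the limit lay CR46322 at 500 bp with a relative signal of 2.07, and CR44409 and CR44078 at 499 bp with 3.53 and 0.652. Just outside lay CR43704 at 501 bp with 0.786 and CR44828 at 504 bp with 0.862. Upstream of their starts, CR44619 had a summit at 549 bp with 7.69 and CR42794 one at 577 bp with 3.21. The first of these was above every member. All other sites from 501 to 578 bp had at most 1.97.

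Signal is given relative to the replicate's own median over all reproducible summits, so that 1 stands for the median site. For each summit it was taken from the strongest relaxed peak over it in each replicate. All 141 had one in all 3 replicates, as did 98.1% of the whole list. The mean relative signal of the members ran from 0.520 to 6.34 with a median of 1.05, and the median coefficient of variation between replicates was 16.1%. At 58 of 141 summits the relative signal was above 1 in all 3 replicates (41.1%). Over the whole list 37.4% of summits met this, and the share was 43.8% at coding promoters and 30.8% at distal summits, those over 500 bp from every TSS. The 137 regions are sites and not replicates, so classes were compared over the 3 replicates.

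Between the classes, members lay slightly below coding promoter summits and slightly above distal ones. The log2 ratio of the median signal of members to that of coding promoter summits was -0.19, -0.09 and -0.08 in replicates 1, 2 and 3, a mean of -0.12 ± 0.06 (SD, n = 3). Against distal summits it was 0.06, 0.22 and 0.17, a mean of 0.15 ± 0.08 (SD, n = 3). Each had the same sign in 3 of 3 replicates and an exact permutation p of 0.25, which is the smallest possible. Among the 2678 summits of highest pooled signal the ratio to coding promoter summits turned to 0.0478 ± 0.0665, and with promoters of 200 bp the ratios to coding and distal summits were -0.20 ± 0.04 and 0.00213 ± 0.0489. With signal taken from the nearest relaxed summit within 100 bp, the ratio to coding promoter summits was -0.06 ± 0.06.

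Among the members, sites nearer the annotated start were the weaker ones. The 57 summits within 200 bp of the non-coding TSS had a median relative signal of 0.907, 0.877 and 0.919 in replicates 1, 2 and 3, and the 84 summits over 200 bp away had 1.08, 1.23 and 1.16. The nearer sites had the lower median in 3 of 3 replicates, and single sites of both groups overlapped. Above 1 in all 3 replicates were 16 of the 57 and 42 of the 84. Upstream and downstream summits had medians of 1.02 and 1.03, and the downstream one was higher by 0.0168 ± 0.0141 (SD of the differences, n = 3, exact permutation p = 0.25).

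The strongest member was upstream of CR44339, an lncRNA gene on 2R. The nearest coding start, 4202 bp away, is that of Psc, a Polycomb group gene. The relative signal of this member was 5.61, 6.53 and 6.87 in replicates 1, 2 and 3. It ranked 49 of 5357 by pooled signal. The other members with means above 5 were at CR44619 on X (5.93, 5.64 and 5.69), CR31044 on 3R (6.22, 4.69 and 4.78) and CR46036 on 3R (4.24, 5.56 and 5.57). CR44619 was bound 488 bp inside its transcribed region, and CR31044 was bound 99 bp upstream of its start. CR46036 lies in an intron of osa on the strand opposite to it, and osa encodes a subunit of the BAP chromatin remodelling complex of the SWI/SNF family. In all 3 replicates these 4 sites were above 4. A second summit at CR44619, 549 bp upstream of its start and so outside the rule, had a higher mean of 7.69.

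The remaining sites of the strongest 12 had mean relative signals from 2.99 to 4.18. The antisense RNA CR44429 starts inside gce, which encodes a receptor of juvenile hormone, and its site had 4.11, 4.35 and 4.08. The coding start of gce itself was 539 bp from this summit, close to the limit of the rule. CR31840, bound 19 bp downstream of its start, had 4.13, 3.05 and 4.999, and CR45352, 1756 bp from that summit, was bound at 2.19, 2.76 and 2.93. CR43626 had 2 summits covered by one and the same relaxed peak in each replicate, so both carry the values 3.16, 4.25 and 3.79 and cannot be told apart by replicate. CR44810, with slbo as its nearest coding gene, had 4.21, 2.98 and 3.56, and slbo encodes a C/EBP factor needed for border cell migration. CR44409, on the strand opposite to Dif, a gene of an NF-kappaB factor of the immune response, had 2.89, 3.52 and 4.18. CR45595 and CR44676 had means of 3.34 ± 0.144 and 2.99 ± 0.448 (SD, n = 3). The summits at CR44409 and CR44676 lay 499 and 388 bp downstream of the start, past the annotated ends of these genes. The 4 sites with means above 5 lay above the 8 others in replicates 1 and 2, while in replicate 3 the value at CR31840 exceeded that at CR31044.

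**Figure D2:**
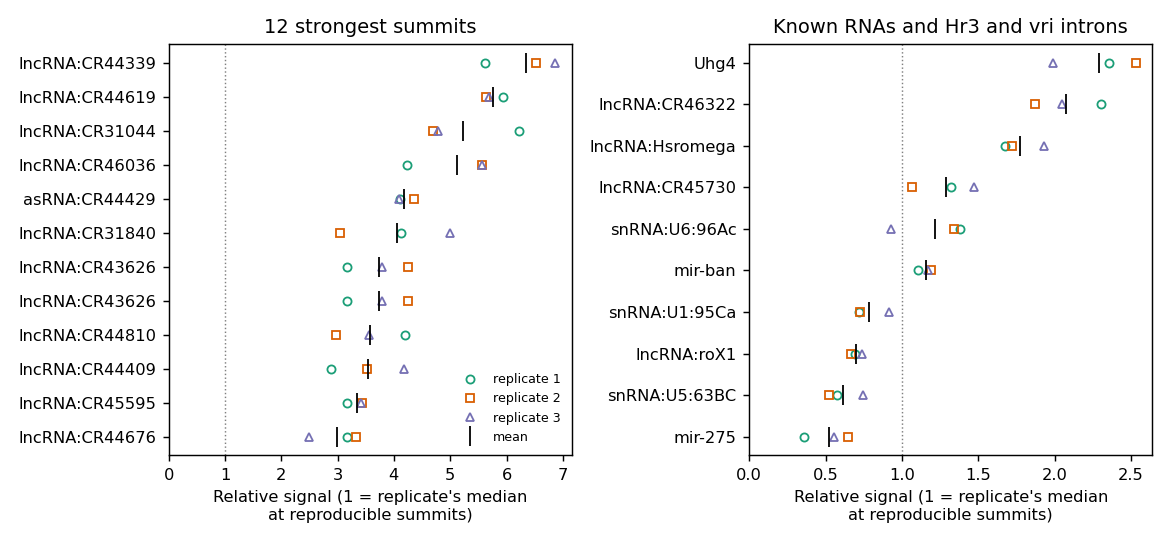
Relative signal (1 is the replicate's median at reproducible summits) in replicates 1, 2 and 3 (symbols) with their mean (bar), for the 12 strongest summits (left) and for known RNAs and the introns of Hr3 and vri (right). The strongest summits lie between 2.48 and 6.87, both CR43626 rows show one shared relaxed peak, and roX1, U5:63BC, U1:95Ca and mir-275 lie below 1 in every replicate.

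Several well known RNA genes were bound. Uhg4, a non-coding host gene whose introns give rise to snoRNAs, was bound 82 bp upstream of its start at 2.36, 2.53 and 1.99. The coding start of Boot was 533 bp from this summit, close to the limit of the rule. Hsromega, the heat-inducible RNA that organises nuclear omega speckles, was bound 234 bp inside the gene at 1.67, 1.72 and 1.93. roX1, an RNA of the dosage compensation complex of the male X, was bound at 0.692, 0.670 and 0.740. This site lay 82 bp upstream of 1 of the 3 annotated starts of roX1, but inside the annotated gene. Uhg4 and Hsromega were above 1 in every replicate and roX1 was below it in every replicate. One further gene, chosen after its values were seen, was flam, a piRNA cluster that silences transposons in the ovary's somatic cells. Its site lay 159 bp upstream of the start and had 1.29, 1.20 and 1.03.

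The 3 snRNA sites were at parts of the spliceosome. At U6:96Ac, 100 bp upstream of the start, the values were 1.38, 1.34 and 0.928. At U1:95Ca, 7 bp downstream, they were 0.716, 0.726 and 0.914. At U5:63BC, 148 bp downstream, they were 0.576, 0.525 and 0.748. U6 snRNA is transcribed by RNA polymerase III and U1 and U5 by RNA polymerase II. The U6 site was the highest of the 3 in every replicate.

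Of 9 microRNA summits 7 lay within protein-coding genes. The highest was at mir-9377 in Tis11, a gene of a factor that destabilises AU-rich mRNAs, with 2.31, 2.23 and 2.28. This summit lay 375 bp downstream of the nearest annotated start, past the end of the hairpin. At bantam, the microRNA that promotes growth and blocks apoptosis, the summit had 1.11, 1.19 and 1.17. It lay 412 bp downstream of the nearest annotated start, the 5′ end of the mature strand at chr3L:642259-642281. mir-9378 in CG17124 had 2 summits, at 0.603, 1.09 and 1.64 and at 0.434, 0.619 and 0.854, and the first was the higher in each replicate. mir-275 had the lowest mean relative signal of all 141, 435 bp upstream of the hairpin, with 0.361, 0.645 and 0.554. The mature strands of these microRNAs annotated as records of their own, read from dm6 as DNA with the seed (bases 2 to 8) in capitals, show that bantam and mir-275 share no seed.
bantam, chr3L:642222-642244: cCGGTTTTcgatttggtttgact
bantam, chr3L:642259-642281: tGAGATCAttttgaaagctgatt
mir-275, chr2L:7425814-7425836: cGCGCTAAtcagtgaccggggct
mir-275, chr2L:7425853-7425875: tCAGGTACctgaagtagcgcgcg

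The other small RNA sites were few. tRNA:Gln-TTG-2-1, in an intron of CG12535, had 1.60, 1.66 and 1.505, and tRNA:Val-CAC-1-1 had 0.479, 0.761 and 0.492. tRNA:Glu-TTC-1-5 and a neighbouring snoRNA gene had summits 199 bp apart that shared a relaxed peak in replicates 1 and 2, where both have 1.40 and 0.814. In replicate 3, where each had its own peak, the tRNA site had 0.656 and the snoRNA site 1.12. The snoRNA sites Or-CD13, Or-CD4 and abba-a had means of 1.18 ± 0.244, 0.806 ± 0.0883 and 0.558 ± 0.0826 (SD, n = 3). The pseudogene CR31032 and snoRNA:Or-ACA9 had 0.713 ± 0.131 and 0.824 ± 0.0524 (SD, n = 3). Of the 21 sites outside the lncRNA and antisense RNA classes, 3 were above 1 in all 3 replicates, against 37.4% of the whole list. Of these 3, 2 were at microRNA genes and 1 at a tRNA gene.

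Among the 13 antisense RNA summits 11 lay upstream of the start (84.6%, interval 54.6 to 98.1) and 8 lay within a protein-coding gene. After CR44429 in gce the highest were CR45908 in CG1943, with 2.04, 1.82 and 2.08, and CR45281, with 1.48, 2.07 and 2.36. CR45281 also had a second summit 746 bp away, which had 0.861, 0.737 and 0.596. All 3 replicates placed the first above the second.

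By host gene, 50 of the 141 summits lay within a protein-coding gene (35.5%, interval 27.6 to 44.0), 49 of them in introns and 1 in a UTR, that of CG43389, and none in a coding exon. The UTR site, another summit at CR43626, had 0.434, 0.902 and 0.516. The shares of all reproducible summits in hosts, introns or coding exons are not given here. The counts above are therefore not read as high or low. The non-coding gene ran opposite to its host at 31 of the 50 and with it at 18, and 1 summit lay in hosts of both strands. Of the lncRNA summits within hosts 23 of 31 were opposite, and of the antisense RNA summits 7 of 8, a class named for its strand, while 6 of the 7 microRNA summits had the strand of the host; these counts were not tested. The log2 ratio of median signal within hosts to that outside was 0.13, 0.24 and 0.04 in the 3 replicates, a mean of 0.13 ± 0.10 (SD, n = 3, exact permutation p = 0.25, the smallest possible).

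Only beat-Ib and CG17124 of the 51 hosts held more than 1 member. beat-Ib, of the beaten path family of axon guidance proteins, held 3 summits within 859 bp at the starts of CR44867 and CR44868. Their values were 3.14, 1.70 and 1.79 for the site with the RORE, 1.04, 2.70 and 1.83 for the second site at CR44867, and 1.06, 1.70 and 1.57 for CR44868. Replicate 1 placed the RORE site highest and replicate 2 the second site, so their order was not settled. The other 49 hosts held 1 member each.

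Of 34 genes on a list of nuclear receptors and ecdysone response genes, 2 hosted a member. Over all 13945 protein-coding genes, 51 hosted one. The list was chosen with earlier results of these data known, so its count is not read as high or low. CR46322 lies in an intron of Hr3 itself, on the same strand, and its summit had 2.31, 1.87 and 2.05. CG12912 and CG46321 also span that point, and the nearest coding start was 11136 bp away. CR45730 lies in vri, which encodes a bZIP repressor of the circadian clock that is also inducible by ecdysone. Its summit, 461 bp downstream of the start and past the annotated end of CR45730, had 1.32, 1.06 and 1.47. All 3 replicates were above the median site at both. Eip63E, a cyclin-dependent kinase gene named for its induction by ecdysone, is not on the list and hosted CR45820, with 0.467, 0.883 and 0.752, below the median site in every replicate.

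With a gap of at most 20 kb between neighbours the members formed 13 clusters holding 30 members, and 111 had no other member within that distance. The largest cluster spans 14658 bp of 3R, with mtSSB and tara as the nearest coding genes, and holds the lncRNA genes CR45639, CR45642, CR45641 and CR45643. Their mean relative signals were 1.06 ± 0.194, 0.708 ± 0.109, 0.639 ± 0.0840 and 0.740 ± 0.0911 (SD, n = 3). From all members the median distance to the nearest coding TSS was 3133 bp, from 510 to 32911 bp, and 17 lay within 1000 bp of one. The 124 others had a median relative signal of 1.03 ± 0.0401 and the 17 had 0.925 ± 0.0792 (SD over replicates, n = 3).

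The share of peaks at non-coding promoters was close to the same in weak and strong peaks of the replicates' full relaxed lists, while the coding share was larger in strong peaks. Relaxed peaks of each replicate, 25578, 27006 and 23582 in replicates 1, 2 and 3, were put into 5 equal classes by signal. From the weakest class to the strongest, the non-coding share was 2.67 ± 0.169, 2.52 ± 0.238, 2.84 ± 0.305, 2.66 ± 0.0848 and 2.60 ± 0.0981% (SD, n = 3). The coding promoter share went from 16.9 ± 0.757% to 49.2 ± 0.536% (SD, n = 3). Within each replicate's strongest 5357 peaks the non-coding share was 2.69, 2.63 and 2.52%. Those peaks covered 82.3 to 92.2% of the 141 members.

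**Figure D3:**
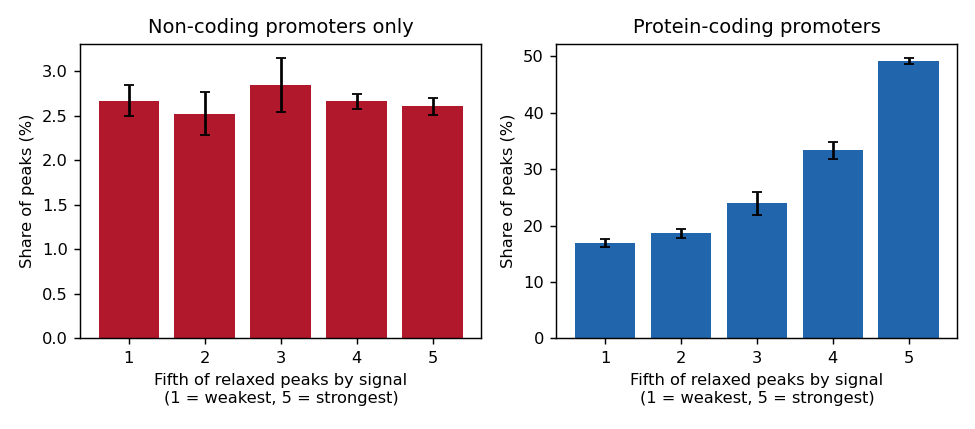
Share of relaxed peaks (%) whose summit lies at a non-coding promoter only (left) or at a protein-coding promoter (right), in 5 equal classes of signal from the weakest (1) to the strongest (5). Bars are means over 3 replicates and whiskers their SD, and the axes differ in scale. The non-coding share stays between 2.52 and 2.84%, and the coding share goes from 16.9 to 49.2%.

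The DRE, Motif 1 and the Ohler 7 element, which are core promoter elements of fly genes, were nearly absent at these sites and rare at distal summits. TATAAA and the initiator core, which are short sequences, were found at members about as often as at distal summits. Both strands of the 100 bp on each side of each summit were searched. The DRE, TATCGATA, the site of the factor DREF, was found at 0 of 141 members, which allows a share of up to 2.58%, and over the whole list at 3.92%. It was found at 7.64% of coding promoter summits, at 0.385% of distal ones and at 0.717% of the 3488 non-coding starts with no coding TSS and no summit within 500 bp, searched over a window of the same length ending at the start. Motif 1 of fly core promoters was found at 0 of 141 members, at 2.33% of coding promoter summits and over the whole list at 1.21%. Its share was 0.154% at distal summits and 0.229% at the non-coding starts without a summit. The Ohler 7 element was found at 1 member, the roX1 site, and at 10.2% of coding promoter summits, against 1.42% of distal ones. Over the whole list its share was 5.69%, and at the non-coding starts without a summit 1.86%. Ohler 6 was found at 1 member, CR46094 (0.709%), which is also its share over the whole list.

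In the replicates' own strongest peaks the DRE share was 0.694, 0 and 0% at non-coding promoters and 7.98, 7.94 and 6.62% at coding promoters, a difference of -7.28 percentage points ± 0.659 (SD, n = 3). For Ohler 7 the difference was -9.40 points ± 0.863 (SD, n = 3). Both were negative in 3 of 3 replicates, with an exact permutation p of 0.25, the smallest possible. Against distal summits the difference in DRE share was -0.254 points ± 0.360 (SD, n = 3), less than its spread between replicates.

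The receptor's own element was rare. An RORE lay within 100 bp of 2 of 141 members (1.42%, interval 0.172 to 5.03), against 1.29% over the whole list. The share was 1.06% of 282 windows 500 bp to either side of the members, 1.03% at coding promoter summits, 1.54% at distal summits and 0.659% at non-coding starts without a summit. The 2 sites were CR44867 in beat-Ib, where the match is centred 5.5 bp from the summit, and the weaker summit of asRNA:CR45281, where it is centred 22.5 bp away. A stricter RORE with more of the AT-rich stretch was found at none of the 141, which allows up to 2.58%. The receptor core alone, AGGTCA or GGGTCA, which is part of the RORE, was found at 7 members (4.96%, interval 2.02 to 9.96), at 7.80% of the whole list and in 10.3% of the members' flanking windows.

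For the other elements the intervals of members overlapped those of coding and of distal summits. The CTCF core AGNNGGCGC was found at 6 members (4.26%, interval 1.58 to 9.03) and over the whole list at 3.25%. Its share was 2.83% at coding promoter summits, 3.62% at distal ones and 1.42% in the flanks. The 6 were CR42657, Uhg4, CR43838, U6:96Ac, tRNA:Glu-TTC-1-5 and snoRNA:Or-CD4. The GAGA element GAGAGAG was found at 8 members (5.67%) and in 5.32% of the flanks, and over the whole list at 2.99%. The E-box CACGTG was at 5 members and the Zelda site CAGGTAG at 1, where the whole list had 1.70 and 0.747%. The homeodomain core TAATTA was found at 29 members (20.6%) and over the whole list at 20.5%. It was in 9.93% of flanks and at 13.1% of non-coding starts without a summit. TATAAA was found at 58 members (41.1%) and over the whole list at 40.0%, in 22.7% of flanks and at 29.3% of those starts. The shares of TAATTA and TATAAA at coding promoter summits were 21.0 and 41.0%. The initiator core TCAGT was at 56 members (39.7%), in 31.2% of flanks and over the whole list at 35.1%. Its share was 39.4% at distal summits and 34.7% at non-coding starts without a summit.

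**Figure D4:**
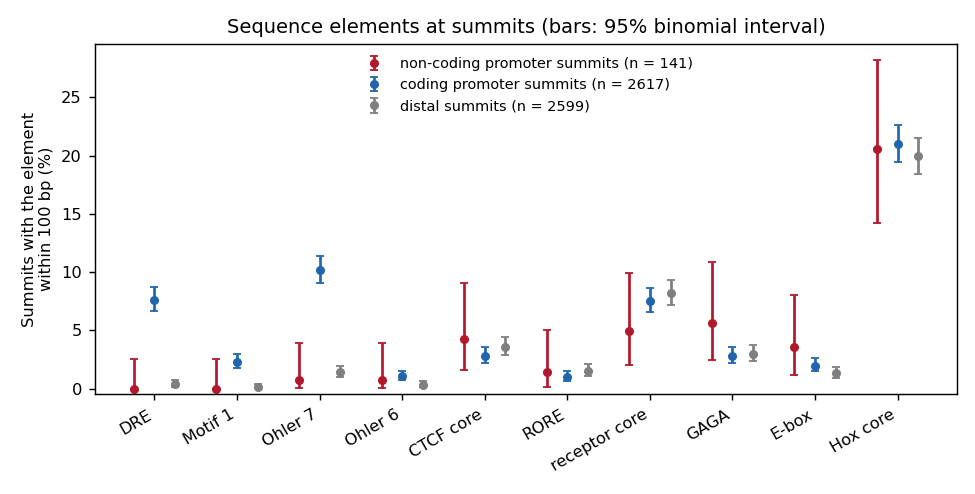
Share of summits (%) with each sequence element within 100 bp on either strand, for 141 non-coding promoter summits (red), 2617 coding promoter summits (blue) and 2599 distal summits (grey), with 95% exact binomial intervals as bars. The DRE lies at 0% of members against 7.64% of coding promoter summits, and Ohler 7 at 0.709% against 10.2%.

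The summits of the members were AT-rich, as were those of the other classes. The part of base composition in the element shares above was not tested. The mean GC content of the 51 bp at the summit was 30.7% ± 9.91 (SD over 141 summits), and that of windows 500 bp away was 43.3%. Coding promoter summits went from 32.2% at the summit to 46.1% at 500 bp and distal summits from 31.4 to 42.2%. The strongest member, at CR44339, had 11.8%, and the members with the CTCF core at U6:96Ac and the RORE at CR44867 both had 60.8%. Over the replicates' own strongest peaks the GC content at members was 31.6% ± 1.96, against 32.9% ± 0.838 at coding promoters and 32.2% ± 0.679 at distal summits (SD, n = 3). The difference was -1.27 points ± 1.17 from coding promoters, with 3 of 3 replicates negative, and -0.580 ± 1.33 from distal summits, with 2 of 3 negative. The 57 members within 200 bp of the start had 32.9% and the 84 farther ones 29.2%.

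**Figure D5:**
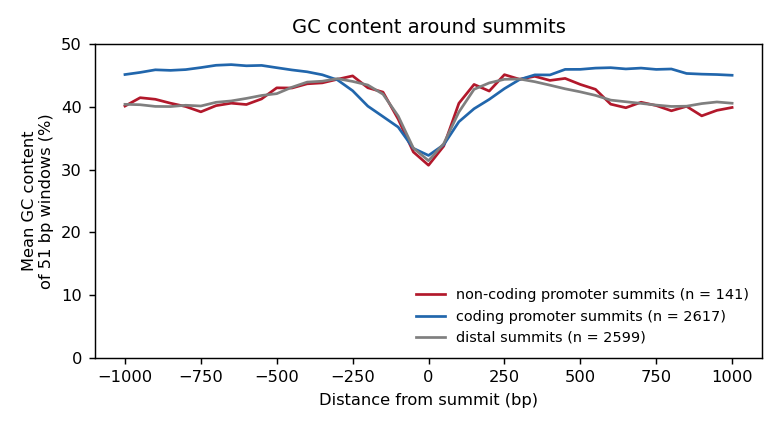
Mean GC content (%) of 51 bp windows against distance from the summit (bp) for non-coding promoter summits (red, n = 141), coding promoter summits (blue, n = 2617) and distal summits (grey, n = 2599). All lines have their lowest value at the summit, 30.7% for the members.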

How the data were processed

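Relaxed peaks of each of 3 replicates and the reproducible list were used as the authors deposited them on dm6. Per the text files the authors supplied for each sample, relaxed peaks came from each replicate's alignments and a control, and the reproducible list from the irreproducible discovery rate over the replicate and pooled lists. The aligner, peak caller and thresholds were not given in the sources used here. The deposited signal of each peak is the authors' peak strength, with a scale that differs between lists. The files hold no reads, so depth is unknown.

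TSSs of all transcripts came from Ensembl release 115 (BDGP6.54, the dm6 assembly), with transposable elements left out. RNA classes were Ensembl biotypes, and genes of its ncRNA biotype were split by RefSeq class into lncRNA, antisense RNA, microRNA and other. The gene snoRNA:Or-ACA9 has that biotype and so fell outside the snoRNA class. Sequences came from the RefSeq genome of the dm6 assembly. Replicate medians at reproducible summits were 40.4, 81.2 and 68.6. Classes were compared by two-sided exact sign flips over replicates, in Python 3.11.15 with pandas 2.3.3, SciPy 1.17.1 and NumPy 2.4.6, and drawn with matplotlib 3.10.9. The code was tested on simulated data. Members, element and gene lists were chosen with earlier results of these data known. Named sites were the 12 strongest, up to 5 (or the strongest 3) of each class other than lncRNA, those at listed known RNAs, in listed ecdysone or receptor hosts, or with an RORE, and the hosts with most members. The replicate-list shares, distance classes, clusters and splits by distance were added after seeing the data. Alternatives were other widths, windows and lists, and each replicate left out.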

Additional observations from a re-analysis of the deposited data

How the results depend on the processing

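Of 54 alternative values for the main results, 44 kept their direction, stayed within their error or, for the number of summits, stayed within a set fold change. Among the 44 were 209 summits with promoters of 1000 bp. Also among them was the ratio to distal summits with promoters of 200 bp, which kept its sign only at 0.00213 ± 0.0489. With promoters of 200 bp the members numbered 69, their share of the replicates' strongest peaks was 1.34%, their upstream share 76.8% and the share of non-coding genes bound 2.07%; with 1000 bp those shares of peaks and of genes were 3.91 and 8.05%. The 2678 summits of highest pooled signal held 71 members, and there the log2 ratio to coding promoter summits reversed to 0.0478; the cause was not tested. GC content over 100 bp to each side was 34.1%, and the median distance to the nearest coding gene's 5′ end was 3652 bp. Leaving out each replicate gave 2.58 to 2.66% for the share in replicate lists, -0.14 to -0.09 for the ratio to coding promoter summits and 0.11 to 0.19 for that to distal ones. Members over 1000 bp from every coding TSS, and overlapping peaks counted once, were tried after seeing the data and gave ratios of the same sign. Classes were compared within replicates; there is no second group to pair. With 3 replicates the sign-flip test could not go below 0.25, no control library was analysed here, and annotated starts of small RNAs are ends of products.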
